A study of Homo sapiens with 4 samples.

Results

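FAIRE-seq isolates the DNA that stays soluble after formaldehyde fixation, which is rich in regions free of nucleosomes, and lists the genomic intervals where such DNA piled up. The sites described here are those that lay in gene deserts, defined as sites on chromosomes 1 to 22 and X whose centre was farther than 200 kb from every start of a protein-coding transcript (GENCODE 44, hg19). They numbered 6081 of the 65614 sites of both lists, with 3413 of 34413 in the basal list and 2668 of 31201 in the overexpression list. The choice used position alone and no measured value. Both lists came from H295R/TR SF-1 cells, derived from the human adrenocortical tumour cell line H295R so that doxycycline induces SF-1 (steroidogenic factor 1, the nuclear receptor encoded by NR5A1). The basal library came from cells without doxycycline and the overexpression library from cells fixed after 3 days of doxycycline, so the agent and the extra SF-1 could not be told apart. There was 1 FAIRE library per condition and the cells were of 1 engineered line, so no test between conditions was possible, and the intervals given cover counting error only. The input DNA library of each condition was not analysed here.

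Gene deserts are long stretches of chromosome that hold no coding start, and many of them flank genes that control development or neuronal wiring. Open chromatin within them can mark distant enhancers, boundaries bound by the insulator protein CTCF, or promoters of long non-coding RNAs (lncRNAs). SF-1 binds as a monomer to an extended nuclear receptor half-site and is needed for the adrenal gland and steroid synthesis. As a check of the cells, sites were sought within 1 kb of the coding starts of 8 adrenocortical genes. STAR, CYP17A1 and CYP21A2 had a site in both lists, NR5A1 in the basal list alone, CYP11A1 and MC2R in the overexpression list alone, and HSD3B2 and NR0B1 in neither. The induced SF-1 itself cannot be read from site lists.

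The first sequences show what a CTCF match in a desert site looked like. They are stretches of GRCh37 around the best match to the 12-letter CTCF core motif, with at most 1 mismatch, in the 3 earliest-listed basal desert sites that overlapped an overexpression site. Each is written 5′ to 3′ on the strand of the match, and the capitals mark the match.
TLE4-TLE1 desert, chr9:83220193-83220293, plus strand: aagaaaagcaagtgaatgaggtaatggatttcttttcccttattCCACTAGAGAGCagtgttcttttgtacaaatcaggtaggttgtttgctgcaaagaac
GADD45G-DIRAS2 desert, chr9:92509773-92509873, minus strand: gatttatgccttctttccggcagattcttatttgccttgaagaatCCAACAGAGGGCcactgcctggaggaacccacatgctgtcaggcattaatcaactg
RBMS3-TGFBR2 desert, chr3:30083882-30083982, plus strand: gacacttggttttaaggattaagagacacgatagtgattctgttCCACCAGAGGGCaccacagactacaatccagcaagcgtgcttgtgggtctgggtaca
The match in the RBMS3-TGFBR2 desert had 0 mismatches and the others 1 each. These sites were peaks 817, 513 and 1822 of the basal list in the order printed, and they overlapped peaks 1788, 422 and 4638 of the overexpression list.

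The next sequences show the SF-1 motif, searched as CAAGGTCA or CAAGGCCA on both strands. They surround the match, in capitals, in the earliest-listed sites of each class, with 2 printed for the shared and the overexpression-only class and 1 for the basal-only class, where a site counts as shared if at least 1 bp of it lies in a site of the other list.
Shared, TLE4-TLE1 desert, chr9:83220805-83220905, plus strand: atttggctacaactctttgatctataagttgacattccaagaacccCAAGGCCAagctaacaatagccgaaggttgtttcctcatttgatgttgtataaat
Shared, TLE4-TLE1 desert, chr9:83711778-83711878, minus strand: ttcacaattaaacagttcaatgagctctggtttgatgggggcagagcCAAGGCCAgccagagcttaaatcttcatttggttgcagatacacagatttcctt
Basal only, DNAJB9-LRRN3 desert, chr7:110359722-110359822, minus strand: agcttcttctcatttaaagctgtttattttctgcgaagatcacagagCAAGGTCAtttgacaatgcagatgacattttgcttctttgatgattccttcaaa
Overexpression only, SPATA31D1-RASEF desert, chr9:85391372-85391472, minus strand: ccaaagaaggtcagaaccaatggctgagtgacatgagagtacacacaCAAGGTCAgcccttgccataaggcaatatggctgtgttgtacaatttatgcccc
Overexpression only, OPA1-HES1 desert, chr3:193632450-193632550, minus strand: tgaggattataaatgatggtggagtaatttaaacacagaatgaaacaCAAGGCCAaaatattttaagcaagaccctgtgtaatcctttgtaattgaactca
Both shared examples came from the desert between TLE4 and TLE1, which encode Groucho-type corepressors, at 899 and 517 kb from the nearest coding start. The last example lay 221 kb from HES1, a transcriptional repressor of the Notch pathway.

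To see how much of the open chromatin lay far from genes, the number of sites was set beside the amount of genome. Desert sites made up 9.92% of the basal list (95% exact Clopper-Pearson interval 9.60 to 10.2) and 8.55% of the overexpression list (8.24 to 8.87). The deserts held 24.98% of the sequenced bases of these chromosomes, 708 of 2836 Mb. The basal list had 4.82 sites per Mb in deserts and 14.6 elsewhere, and the overexpression list had 3.77 and 13.4. Sites thus stood in deserts at a lower density than elsewhere in both lists.

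Density went on falling with distance inside the deserts. From 200 to 300 kb the basal list had 5.88 sites per Mb, from 300 to 500 kb 4.92, from 500 to 1000 kb 4.22 and beyond 1000 kb 3.55. The overexpression list fell from 4.68 through 3.88 and 3.24 to 2.65 sites per Mb over the same classes. The median desert site was 380 kb from a coding start in the basal list and 377 kb in the overexpression list, and the farthest sites lay at 2380 and 2628 kb. The threshold cut through no gap in the distances. Just inside it were an overexpression-only site inside CTNNA3 at 200.04 kb and a basal-only site between GLI2 and TFCP2L1 at 200.08 kb. Just outside it were a shared site in XYLT1 at 199.99 kb and a basal-only site near DAAM1 at 199.99 kb.

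A gene desert by distance is not the same as DNA without genes. In the basal list 17.1% of the desert sites lay inside the body of a protein-coding gene (582 of 3413) and in the overexpression list 15.6% (417 of 2668), against 57.2% and 56.3% of the other sites. These were inner stretches of very long genes, and 0.381% and 0.300% of the desert sites had their centre in a coding-gene exon. Counting each shared pair once, 795 of 4887 desert sites lay in 254 coding genes. Among the genes holding most were MYO16, an unconventional myosin, with 20 sites, NALF1 with 16 and the neuronal adhesion gene LSAMP with 14. A further overlap was with lncRNA genes, whose bodies held 31.1% of the basal and 31.6% of the overexpression desert sites, against 15.3% and 15.7% of the other sites. The share of desert bases that lies in lncRNA genes was not computed, so a preference of the sites for these genes was not tested. Sites in no annotated gene made up 52.2% and 53.1% of the desert sites and 32.2% and 32.7% of the others. Leaving out the sites in coding gene bodies left 8.23% of the basal list and 7.21% of the overexpression list in deserts, and the ratio of overexpression to basal desert sites went from 0.782 to 0.795.

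The main contrast with the rest of the genome was in the part of the sites found in both lists. Of all basal sites 54.2% overlapped an overexpression site, and of all overexpression sites 59.7% overlapped a basal site. In the deserts the shared part was 35.1% of the basal sites (1198 of 3413, interval 33.5 to 36.7) and 44.8% of the overexpression sites (1194 of 2668, 42.9 to 46.7). The other sites of the same lists were shared at 56.3% and 61.1%. The difference, desert minus other, was -21.2 percentage points in the basal list (Newcombe 95% interval -22.9 to -19.5) and -16.4 in the overexpression list (-18.3 to -14.4). Against the sites at 10 to 200 kb from a coding start alone, the differences were smaller, -9.60 points (-11.4 to -7.81) and -7.64 points (-9.69 to -5.57). Hence most desert sites were listed in 1 condition, 2215 as basal only and 1474 as overexpression only.

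**Figure D1:**
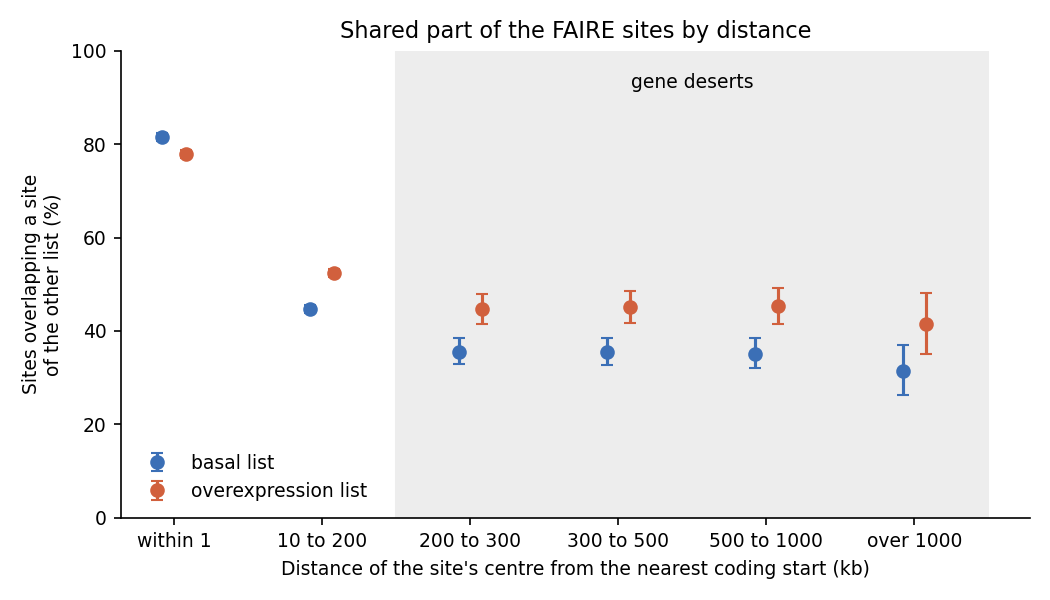
Share of FAIRE sites that overlap a site of the other list (y axis, percent) by distance of the site's centre from the nearest coding start (x axis, kb; the class from 1 to 10 kb is not drawn), for the basal list (blue) and the overexpression list (orange). Bars are 95% exact binomial intervals, and the grey band marks the gene deserts. Sites within 1 kb of a start were shared at 81.6% and 77.8%, and the 4 desert classes lay between 31.4% and 45.4%.

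Within the deserts the shared part hardly moved with distance. It was 35.6% of the basal sites at 200 to 300 kb, 35.6% at 300 to 500 kb, 35.2% at 500 to 1000 kb and 31.4% beyond 1000 kb (interval 26.2 to 36.9), and these intervals overlapped. The overexpression list gave 44.8%, 45.1%, 45.4% and 41.5% (35.0 to 48.2).

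Desert sites were narrower, stood later in their lists and were poorer in GC than other sites, and each of these properties moved with the shared part. The median width was 199 bp in both lists, against 249 bp for the other sites. By place in the deposited list, given as percent of the list from its top, the median desert site stood at 62.0% in the basal list and 63.9% under overexpression, against 48.8% and 48.9%. What ordered the lists was not given in the sources used here. Shared desert sites stood earlier, at 35.6% in the basal list, than basal-only ones, at 72.7%. GC content averaged 42.2% ± 7.4 (SD over 1198 sites) in shared, 38.4% ± 7.0 (2215 sites) in basal-only and 41.0% ± 8.2 (1474 sites) in overexpression-only desert sites. The other sites averaged 49.8% in the basal list and 52.9% under overexpression. Sites at 10 to 200 kb from a coding start lay closer to the desert sites. In the basal and the overexpression list their median widths were 249 and 199 bp and their median places 55.9% and 58.2%. Their GC content averaged 43.3% and 46.0%, against 39.7% and 41.7% for all desert sites.

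The lower shared part of desert sites was therefore computed again at like place, width and GC. When each list was cut into 4 equal stretches by peak number, it was lower than that of other sites in 4 of 4 stretches of both lists, with intervals that left out 0. In the first stretch of the basal list 76.6% of desert and 88.0% of other sites were shared, and in the last 15.3% and 29.7%. It was lower too in 6 of 6 width classes of both lists. By GC content, the interval lay below 0 in 5 of 8 classes of the basal list and 8 of 9 of the overexpression list. At 35 to 40% GC, the class with most desert sites, the basal list gave 35.9% in deserts and 37.1% elsewhere (difference -1.13 points, -4.22 to 2.03), and the overexpression list 48.5% and 54.2% (-5.70, -9.66 to -1.73). At 50 to 55% GC the basal values were 46.5% and 62.5% (-15.96, -24.1 to -7.62). In the basal list the gap between desert and other sites lay between -5.41 and -1.13 points in the classes below 45% GC and between -38.3 and -8.18 points in those above. The other sites include those within 1 kb of a coding start, which in the basal list were shared at 81.6% and averaged 63.3% GC. Sites at 10 to 200 kb alone were not compared within these classes.

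A shared pair need not have the same extent in both conditions. Of the 1198 shared basal sites 560 were wider in the basal list, 352 were wider in the overexpression list and 286 had the same width. Shared pairs outside the deserts were not compared in this way. The shared site that was widest in the basal list, chr13:109983301-109984799 between MYO16 and IRS2, which encodes an insulin receptor substrate, spanned 1499 bp in the basal list and 349 bp in the overexpression list. It was peak 523 of the first and peak 19950 of the second. The next, chr21:9825301-9826599, spanned 1299 bp in the basal and 2199 bp in the overexpression list. It held the miRNA gene MIR3648, had a GC content of 81.5%, and 83.2% of its 32-letter words occurred elsewhere in the reference. The third, chr6:135044201-135045299 between SGK1, a kinase induced by steroids, and ALDH8A1, spanned 1099 bp and 699 bp and held an SF-1 match. The fourth, chr9:104803701-104804749 between GRIN3A and CYLC2, spanned 1049 bp and 199 bp and held an SF-1 match as well. The fifth, chr3:75484201-75485149 at the start of LINC02018, spanned 949 bp in both lists.

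The widest sites of the single-condition classes differed in where they lay. The 5 widest basal-only sites spanned 699 to 1149 bp and held no repeated word. The widest was chr13:97203001-97204149, 1149 bp inside HS6ST3, a heparan sulfate sulfotransferase gene, with an SF-1 match. The other four lay between GADD45G and DIRAS2, in FBXL17, in a lncRNA gene between SPATA31D1 and RASEF, and in NALF1. The 5 widest overexpression-only sites spanned 649 to 949 bp. The widest, chr6:115861351-115862299, lay between HS3ST5 and FRK and held no repeated word. Of the rest, chr16:46404351-46405199 and chr16:46432501-46433249 on chromosome 16 and chr10:42392501-42393149 on chromosome 10 lay within 0.0471 Mb of a centromere gap, with 77.9%, 91.2% and 45.6% of their words repeated. The remaining site, in the lncRNA gene CFAP20DC-DT, held a CTCF and an AP-1 match.

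The overexpression list had fewer sites than the basal list in the deserts. Their ratio, overexpression to basal, was 0.782 in the deserts (exact binomial interval 0.743 to 0.823), 0.853 at 10 to 200 kb (0.834 to 0.873), 0.907 at 1 to 10 kb (0.873 to 0.942) and 1.05 within 1 kb of a start (1.02 to 1.08). The ratio was lower in the deserts than in each of the other classes. Within the deserts it went from 0.795 at 200 to 300 kb to 0.748 beyond 1000 kb, with overlapping intervals (0.729 to 0.868 and 0.628 to 0.891).

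GC content moved with this ratio. Below 30% GC the deserts held 178 basal and 97 overexpression sites (ratio 0.545, 0.421 to 0.702), at 40 to 45% GC 820 and 705 (0.860, 0.776 to 0.952), and at 45 to 50% GC 358 and 390 (1.09, 0.941 to 1.26). The other sites gave 0.422, 0.830 and 1.04 in the same classes. Within a GC class the desert ratio was higher than that of the other sites in 9 of 10 classes, and the interval of the quotient left out 1 in 1 class, at 35 to 40% GC (1.11, Wald interval on the log scale 1.00 to 1.23). The lower ratio of the deserts was thus not seen among sites of like GC content.

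**Figure D2:**
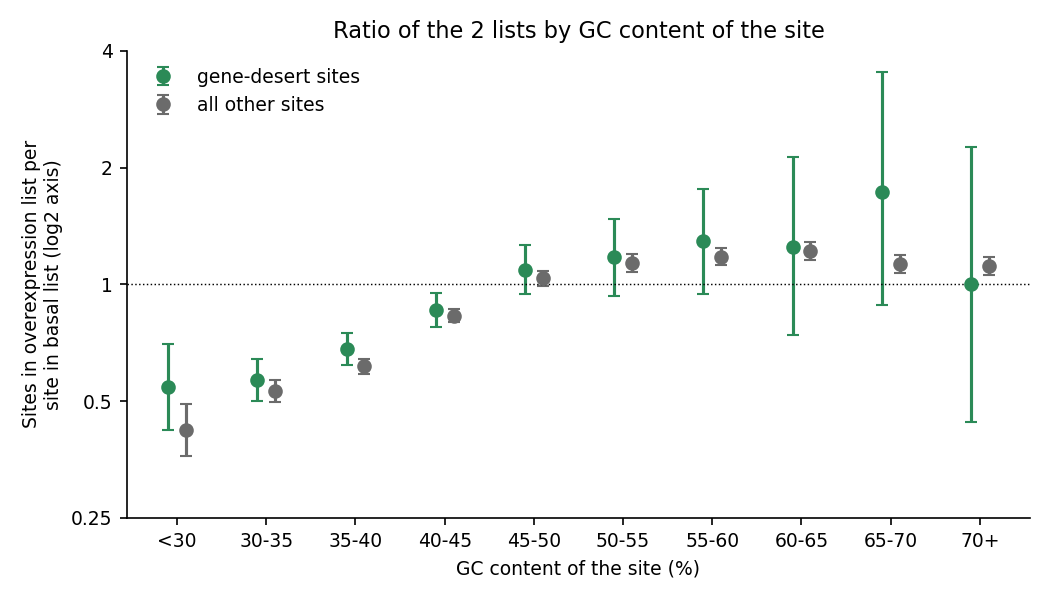
Number of overexpression sites per basal site (y axis, log2 scale) by GC content of the site (x axis, percent), for gene-desert sites (green) and all other sites (grey); bars are 95% exact binomial intervals and the dotted line marks 1. Both series rise from about the same low values (0.545 and 0.422 below 30% GC) to values above 1 from 45% GC on, except the desert sites at 70% GC and more, which stand at 1.00 with 14 sites in each list.

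Chromosomes differed in the ratio as well. In 1 of 23 chromosomes its interval lay above the ratio of all desert sites, chromosome 1 with 137 basal and 151 overexpression sites (1.10, 0.869 to 1.40), and in 2 it lay below, chromosome 7 with 219 and 137 (0.626, 0.502 to 0.778) and chromosome X with 104 and 55 (0.529, 0.374 to 0.740). Without sites of mostly repeated sequence and sites within 5 Mb of a centromere gap, chromosome 1 gave 1.05 (0.817 to 1.34), chromosome 7 0.610 (0.482 to 0.770) and X 0.510 (0.354 to 0.727). Chromosome 16 moved most, from 0.853 (0.626 to 1.16) to 0.551 (0.371 to 0.810).

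Repeated sequence was measured as the part of a site's 32-letter words that occur more than once in the reference. Its median was 0 in both lists, in deserts and elsewhere. Sites with at least 50% of repeated words made up 3.40% of the basal desert sites (116, interval 2.82 to 4.06) and 5.32% of the overexpression ones (142, 4.50 to 6.24), against 1.17% and 1.43% of the other sites. Desert minus other was 2.22 points (1.65 to 2.90) and 3.90 points (3.09 to 4.82). Of these repeated sites, 93 of 116 and 117 of 142 lay within 5 Mb of a centromere gap. Away from the gaps 0.744% of the basal (0.472 to 1.11) and 1.06% of the overexpression desert sites (0.690 to 1.57) were repeated. The overexpression-only class had more of them than the basal-only class, 5.36% against 2.21% (difference 3.15 points, 1.90 to 4.53), and the gap was smaller among the other sites (0.662 points, 0.346 to 0.988). Bases masked by WindowMasker, which counts frequent short words and low-complexity DNA, had medians of 14.7% and 12.4% in deserts and 10.4% and 8.31% elsewhere.

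Motifs were then compared between the classes of desert sites, with the same search in 2 flanks of the site's own width that began 1000 bp beyond its ends. The CTCF motif occurred in 14.0% of the basal desert sites (477, interval 12.8 to 15.2) and 12.5% of the overexpression desert sites (333, 11.3 to 13.8), against 0.820% and 0.993% in the flanks. By class it was in 16.5% of the shared (14.5 to 18.8), 12.6% of the basal-only (11.2 to 14.0) and 8.96% of the overexpression-only sites (7.55 to 10.5). The overexpression-only class lay below the basal-only class by a difference of -3.64 points (-5.62 to -1.59), and the same difference among the other sites was -3.72 points (-4.61 to -2.82). CTCF matches in desert sites lay at a median of 25.5 bp from the site's centre in the basal and 23.5 bp in the overexpression list. SF-1 matches in desert sites lay at 38.5 and 35.5 bp. The width of the sites, at a median of 199 bp, bounds these distances, and they were not compared with random placement.

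CTCF matches were rarer in deserts than at 10 to 200 kb, where 21.4% and 19.7% of the sites held one. The difference, desert minus 10 to 200 kb, was -7.41 points (-8.70 to -6.05) in the basal and -7.26 points (-8.63 to -5.79) in the overexpression list, and it was -9.13 points among shared basal sites (-11.4 to -6.71). At like GC content, the interval of the difference lay below 0 at 30 to 40% and at 45 to 50% GC in both lists, below 30% in the basal list alone, and at 40 to 45% and 50 to 55% in the overexpression list alone. From 55% GC on the intervals included 0 in both lists. At 35 to 40% GC 10.8% of the basal desert sites and 17.7% of the basal sites at 10 to 200 kb had a match (-6.87 points, -8.96 to -4.58), at 40 to 45% the values were 18.9% and 21.0% (-2.11, -4.96 to 0.978), and at 45 to 50% 20.7% and 25.9% (-5.18, -9.44 to -0.376). The overexpression list gave -3.64 points at 40 to 45% (-6.39 to -0.585), -5.09 at 45 to 50% (-8.81 to -0.803) and -7.86 at 50 to 55% GC (-13.1 to -1.22).

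The SF-1 motif was in 16.03% of the basal desert sites (547, 14.8 to 17.3) and 15.4% of the overexpression desert sites (410, 14.0 to 16.8), against 2.24% and 1.99% in the flanks. A control of the same base composition, GACATGCA or GACACGCA, was in 0.879% and 0.862% of the sites and 0.894% and 0.843% of the flanks. GACACGCA holds a CG pair, which neither SF-1 word does, and the control was rarer than the SF-1 motif in the flanks too. For the SF-1 motif the difference against 10 to 200 kb was -0.279 points in the basal list (-1.60 to 1.11). In the overexpression list it was -1.33 points (-2.80 to 0.211). Sites within 1 kb of a coding start held the motif in 3.45% and 3.73%, close to their flanks at 3.58% and 3.82%. By class, 20.5% of the shared desert sites (18.2 to 22.8), 13.6% of the basal-only (12.2 to 15.1) and 12.1% of the overexpression-only sites (10.5 to 13.9) held a match. Against sites of the same class at 10 to 200 kb, the overexpression-only desert sites were lower, 12.1% against 15.6% (-3.46 points, -5.27 to -1.50). The differences of the shared basal sites (2.10 points, -0.275 to 4.63) and of the basal-only sites (-1.01 points, -2.57 to 0.641) had intervals that include 0. Overexpression-only minus basal-only was -1.49 points, with an interval of -3.66 to 0.743 that includes 0. The same difference among the other sites was 0.827 points (-0.0374 to 1.70). A higher share of the SF-1 motif among the desert sites listed under overexpression alone was thus not detectable. Of the desert sites with a CTCF match, 22 of 477 in the basal and 27 of 333 in the overexpression list also held an SF-1 match. Among all desert sites 547 of 3413 and 410 of 2668 held one.

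AP-1, the Fos and Jun dimers that bind TGACTCA or TGAGTCA, gave a smaller excess. Its motif was in 9.43% of the shared (7.84 to 11.2), 8.40% of the basal-only (7.28 to 9.63) and 5.16% of the overexpression-only desert sites (4.08 to 6.41). Flanks held it in 4.63%, 3.499% and 3.22%. Overexpression-only minus basal-only was -3.24 points (-4.84 to -1.59), and the same difference among the other sites was -2.66 points (-3.27 to -2.06).

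**Figure D3:**
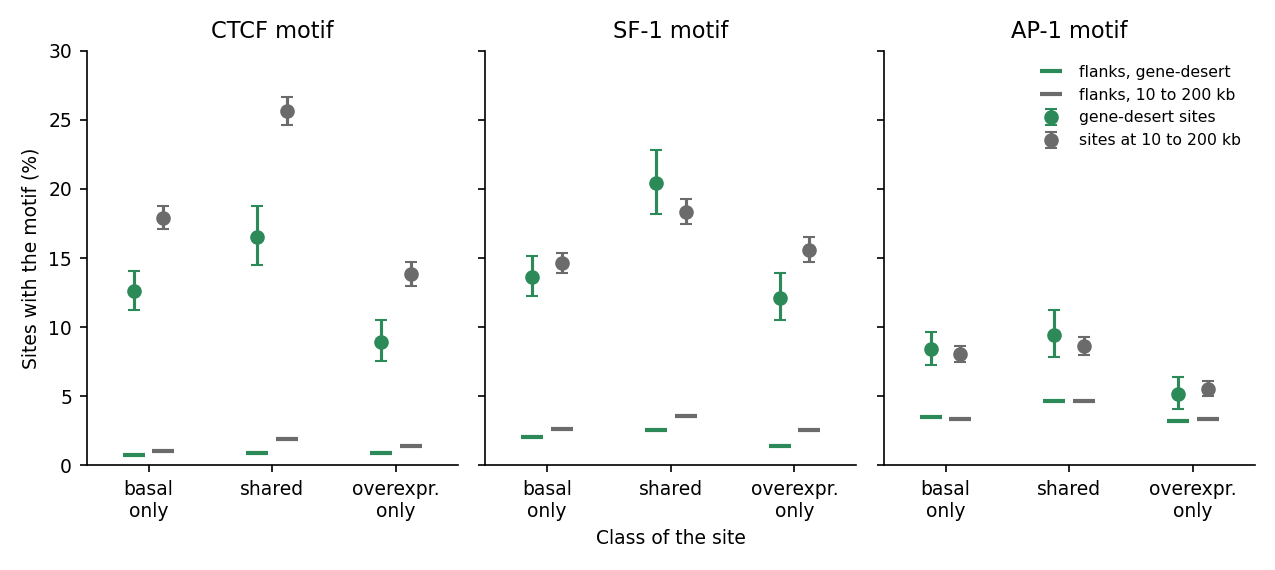
Share of sites holding the CTCF, SF-1 or AP-1 motif (y axis, percent) in basal-only, shared (basal list) and overexpression-only sites (x axis), for gene-desert sites (green) and sites at 10 to 200 kb from a coding start (grey). Points have 95% exact binomial intervals, and short dashes give the same search in the flanks. The CTCF share is lower in deserts in all 3 classes (16.5% against 25.7% in shared sites), and shared sites hold the SF-1 motif most often (20.5% in deserts).

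LncRNA promoters made up a small part of the desert sites. A lncRNA transcript start lay within 1 kb of 4.25% of the basal (145, interval 3.60 to 4.98) and 4.84% of the overexpression desert sites (129, 4.05 to 5.72). At 10 to 200 kb the shares were 4.98% and 5.90%, a difference of -0.728 points in the basal list (-1.44 to 0.0705) and -1.06 points in the overexpression list (-1.92 to -0.102). Among all other sites, many of which sit at coding starts, they were 10% and 11.6%. The median distance to a lncRNA start was 81.9 kb in the basal list and 76.3 kb in the overexpression list. The starts with a desert site belonged to 129 lncRNA genes in the basal and 114 under overexpression. Shared sites had a lncRNA start within 1 kb in 5.84% (4.58 to 7.33), basal-only sites in 3.39% (2.67 to 4.23) and overexpression-only sites in 4.07% (3.12 to 5.21).

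The 10 shared desert sites at a lncRNA start that were widest in the basal list belonged to 8 lncRNA genes. LINC02018 had the first by basal width, 949 bp in both lists. Its site had a GC content of 70.1%, and 40.8% of its words were repeated. LINC01410 had a site of 899 bp in the basal and 949 bp in the overexpression list, of which 57.8% of the words were repeated. MIR663AHG, host of a miRNA, had a site of 849 bp in the basal and 899 bp in the overexpression list 4 bp from a start, and another of 499 bp and 999 bp. LINC02669, in the desert beside the zinc finger factor gene KLF6, had sites of 649 bp and 599 bp in the basal and 499 bp and 449 bp in the overexpression list. The other four were LINC00273, LINC02328, MIR4458HG and LINC00540, with basal widths from 449 to 549 bp. LINC00540 had the earliest-listed of these sites in the basal list, peak 395, which overlapped peak 1701 of the overexpression list. In the LINC00273 site 31.7% of the words were repeated. Both MIR663AHG sites lay 0.13 Mb from a centromere gap. Those of LINC01410, LINC00273 and LINC00540 lay at 0.991, 1.32 and 3.66 Mb, and the rest at 15.0 Mb or more. Of all shared basal desert sites 14.9% lay within 5 Mb of such a gap.

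The sites were then grouped by desert, a stretch of at least 1 kb that is farther than 200 kb from every coding start. It lies between 2 neighbouring coding starts, or between a chromosome end and the nearest coding start, with 1 flanking start alone. Of 1293 deserts 904 held a site (69.9%) and 389 held none. Deserts with a site had a median length of 461 kb and those without 90.9 kb. The median number of sites, with a shared pair counted once, was 3 per desert with a site, 227 deserts had 1 site, 197 had at least 8 and 33 at least 20. Both lists had sites in 639 deserts, of which 155 had no shared site. The longest desert without a site spanned 1355 kb inside PTPRD, a receptor phosphatase gene of neurons.

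The 12 deserts with most sites held 384 of 4887 sites (7.86%) in 2.86% of the desert bases, and a listed gene of neuronal adhesion flanked 6 of them. Such a gene flanked 153 of all 904 deserts with a site (16.9%), and the 190 deserts beside such a gene, with or without sites, were longer than the others, at a median of 629 kb against 276 kb. The first, chr21:17414838-18685360 between the deubiquitinase gene USP25 and the adhesion gene CXADR, had 39 sites, 24 in the basal and 23 under overexpression with 8 shared. Of its sites 27 lay in MIR99AHG, the lncRNA that hosts the miR-99a cluster. That gene held most desert sites of all lncRNA genes, 37.6 per Mb of its 718 kb. The FLRT2 to GALC desert (FLRT2 encodes an adhesion and guidance protein, GALC a lysosomal enzyme) followed with 37 sites, 26 basal and 21 overexpression.

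Of these 12 deserts 10 had more basal than overexpression sites, among them the others beside neuronal adhesion genes. LSAMP to IGSF11, both of the immunoglobulin family of adhesion proteins, had 24 basal and 13 overexpression sites. Of its 32 sites 15 lay in a single lncRNA gene, which is 806 kb long where the desert spans 1474 kb. SLITRK5 to GPC5 had 24 and 17, REEP3 to LRRTM3 21 and 14, and H3Y1 to CDH18 19 and 13. CDH8 to CDH11, chr16:62270940-64822236, had 25 basal and 8 overexpression sites with 4 shared, a ratio of 0.320 (0.125 to 0.732) whose interval lay below the 0.782 of all desert sites. No other of the 12 had an interval below it. Within this desert 11 of 29 sites fell in 100 kb that began 2125 kb from its left edge.

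MYO16 to IRS2, chr13:109481960-110238929, was the densest of the 12, with 35 sites in 757 kb, 46.2 per Mb. It had 33 basal and 20 overexpression sites, of which 18 were shared, 15 basal only and 2 overexpression only, and 20 of the sites lay in MYO16 itself. TLE4 to TLE1 had 33 sites, 23 basal and 22 overexpression with 12 shared. TBX3 to MED13L, chr12:115321981-116246403, flanked by a T-box factor of limb and breast development and a Mediator subunit, had 28 sites with 21 basal, 19 overexpression and 12 shared, and 9 of the 28 held an SF-1 match.

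**Figure D4:**
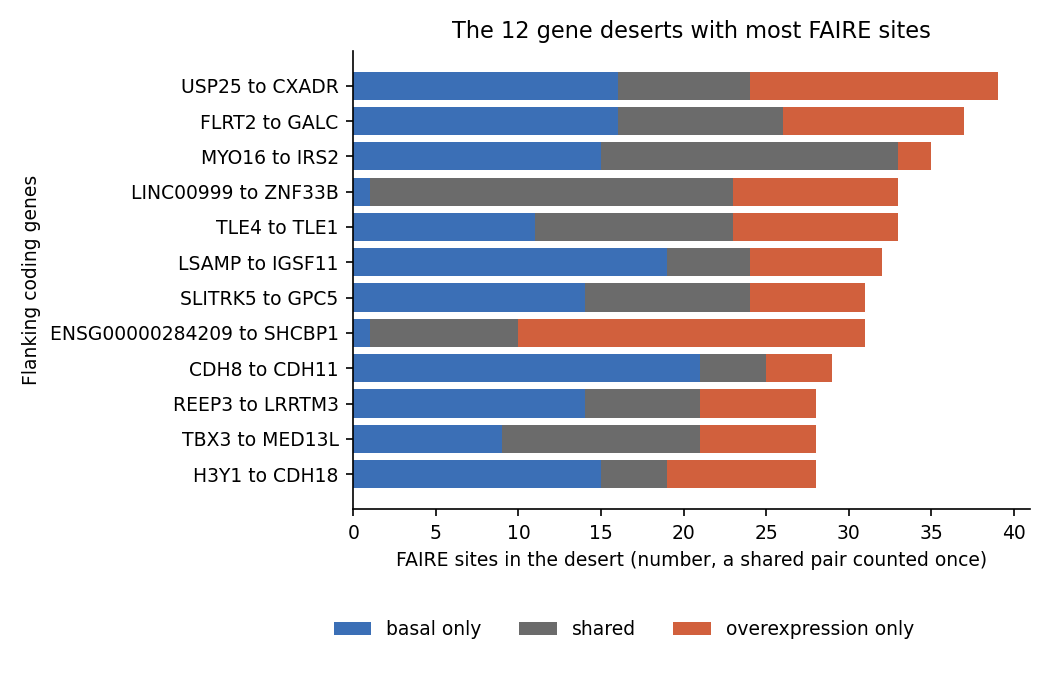
Number of FAIRE sites (x axis) in the 12 gene deserts with most sites, named by their flanking coding genes (y axis) and split into basal-only (blue), shared (grey) and overexpression-only sites (orange), with a shared pair counted once. USP25 to CXADR leads with 39 sites; basal-only sites are 21 of 29 at CDH8 to CDH11, and overexpression-only sites are 21 of 31 at ENSG00000284209 to SHCBP1.

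Among the 12, LINC00999 to ZNF33B and ENSG00000284209 to SHCBP1 span the centromere gaps of chromosomes 10 and 16 and stood apart. The first (LINC00999 is annotated as coding here) had 23 basal and 31 overexpression sites with 22 shared, and 10 of its 33 sites were repeated. The second had 10 basal and 30 overexpression sites, and 25 of its 31 sites were repeated. Its ratio was 3.00 (1.43 to 6.88), the 1 interval of the 12 above the ratio of all desert sites. Neither held a CTCF or SF-1 match.

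**Figure D5:**
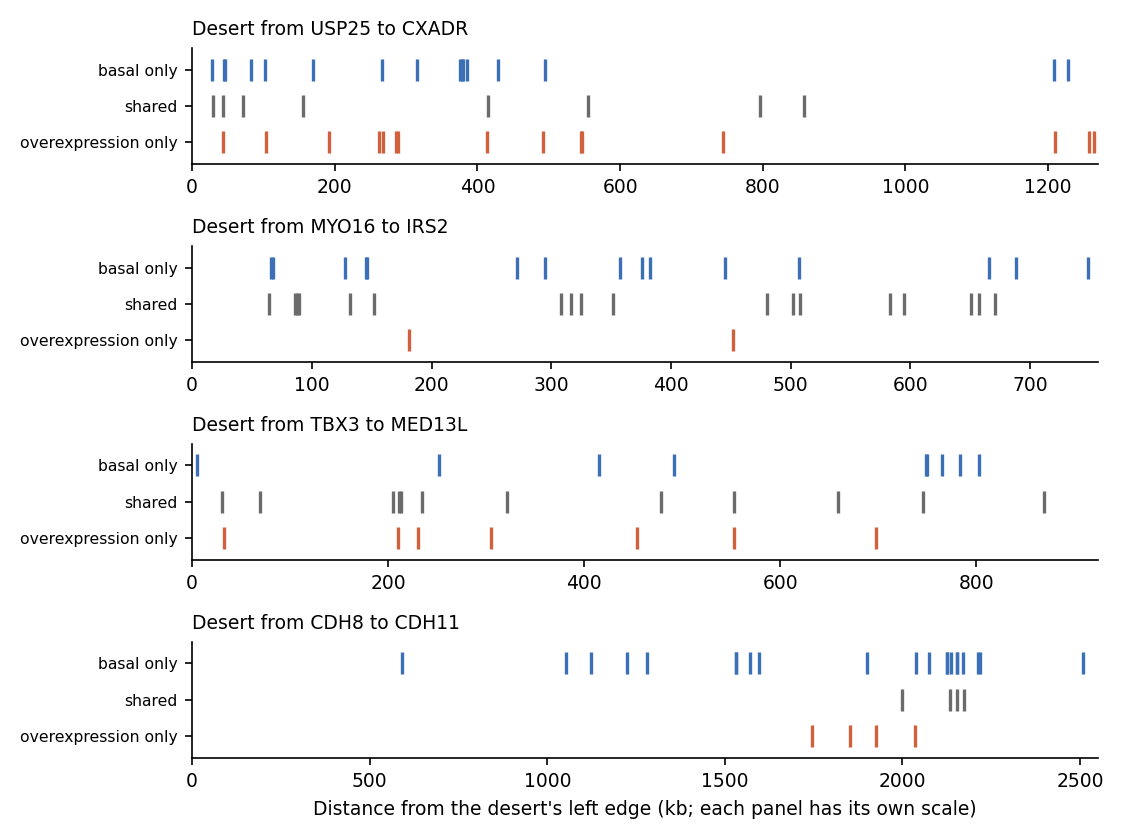
Positions of the sites, as distance from the left edge of the desert (x axis, kb, with its own scale in each panel), in 4 deserts; each tick is 1 site, in rows for basal-only (blue), shared (grey) and overexpression-only sites (orange). Sites of USP25 to CXADR crowd in its left part, with a gap of 350 kb further right; MYO16 to IRS2 has 2 overexpression-only sites among 35, and CDH8 to CDH11 none left of 592 kb.

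Developmental genes flanked a good part of the deserts, with or without sites. The list of developmental transcription factors and signalling genes was chosen with earlier results of these data known. A gene of it flanked 209 of 904 deserts with a site (23.1%, interval 20.4 to 26.01) and 77 of 389 without (19.8%, 15.9 to 24.1), a difference of 3.33 points (-1.67 to 7.97). For the transcription factors alone the shares were 13.6% and 12.9%. Site density was 6.96 per Mb in deserts flanked by a listed developmental gene and 6.88 in the others, and 35.0% and 35.1% of their basal sites were shared. Neither share nor density thus set these deserts apart. Genes of neuronal adhesion flanked 16.9% of deserts with and 9.51% of those without a site (difference 7.41 points, 3.37 to 11.03). Site density was lower in these longer deserts, 5.54 per Mb against 7.43, and 29.8% of their basal sites were shared (26.6 to 33.2), against 36.7% in the other deserts. Their ratio of overexpression to basal sites was 0.711 (0.636 to 0.794). The 19 deserts beside genes of the adrenal list all held a site, 108 in all, where 69.9% of all deserts held one. They had a median length of 376 kb, against 303 kb for the others, and deserts with a site were longer in general. Their sites had a ratio of 0.803 (0.556 to 1.15).

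Of the deserts flanked by a listed transcription factor or adrenal gene, 26 held at least 8 sites. Basal sites outnumbered overexpression sites in 18 of them, were fewer in 5 and as many in 3. In none did the interval of the ratio leave out that of all desert sites, so the counts below are descriptions. The nuclear receptor gene RORB flanked a desert with ANXA1 that had 19 basal and 10 overexpression sites. BCL11A, a zinc finger repressor, flanked one with 14 in each list, and KLF4, a pluripotency factor, one with 11 in each.

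CITED2, a transcriptional cofactor with a part in the formation of the adrenal gland, flanked a desert with 13 basal and 12 overexpression sites, 5 of them shared. AGTR1, the angiotensin II receptor of the aldosterone-producing zone, and ZIC1 enclosed 9 basal and 3 overexpression sites. INHBA, an activin subunit, had 7 and 3 with none shared. The orphan receptor gene NR4A3 stood beside a desert of 200 kb with 3 basal and 9 overexpression sites, the largest excess under overexpression in this group (ratio 3.00, 0.749 to 17.2). NR2F2, the orphan receptor COUP-TFII, had deserts on both sides, with 4 and 4 sites towards MCTP2 and 7 and 3 towards ARRDC4. CTNNB1, which encodes beta-catenin, had 6 and 3.

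Other factors of growth and patterning had small counts. EBF1 had 3 basal and 8 overexpression sites, ID2 8 and 11, and MYC, whose desert towards GSDMC includes 8 sites in the lncRNA gene PVT1, 9 and 13. IRX1 had 4 and 5 and BHLHE22 5 and 4. JARID2 had 10 and 9, MEIS1 10 and 6, ZFHX3 11 and 6, POU3F2 8 and 6, DACH1 8 and 3, TSHZ3 8 and 4, FOXO1 7 and 4 and TFAP2A 6 and 3. KLF6 had 8 basal and 7 overexpression sites with 6 shared, and 7 of its 9 sites lay in LINC02669. At POU3F2 10 of 11 sites and at NR4A3 6 of 10 lay in a single lncRNA gene. In the other deserts of this group no lncRNA gene held more than 50% of the sites. The part of each desert that its lncRNA genes cover was not computed.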

How the data were processed

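FAIRE-seq site lists of 2 libraries, 1 per condition, were analysed. The authors deposited intervals of hg19 whose score, constant at 1000, holds no measurement, beside a running peak number. The submitters' processing notes name CASAVA 1.8. The FAIRE aligner, peak caller and threshold were not given in the sources used here, and read depth is unknown, so no signal, fold change or depth floor was computed. Peaks were listed per library, on a grid of 50 bp.

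Starts of 20098 protein-coding and 18592 lncRNA genes came from GENCODE 44 lifted to GRCh37, and sequences from the GRCh37 reference, which carries no repeat mask. Chromosome Y and other sequences (10 basal and 18 overexpression sites) were left out, and no site passed a chromosome end. Exact Clopper-Pearson, Newcombe and binomial ratio intervals (95%) were computed with scipy 1.17.1, and WindowMasker came from BLAST 2.17.0. Sites are not replicates, so no p-value is given. The scripts were tested on simulated data.

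Members, gene lists and tests were chosen with earlier results of these data known. Named were the flanking genes of the 12 deserts with most sites and of deserts with at least 8 sites beside a listed transcription factor or adrenal gene, lncRNA genes at the 10 widest shared sites, the 5 widest sites per class and the 2 sites on either side of the threshold. Sequences were the earliest-listed matches, by a fixed rule that left out chromosome 8. DIRAS2, GADD45G and other flanks of these named sites and sequences are given for position. A few items that these rules name are not reported here.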

Additional observations from a re-analysis of the deposited data

How the results depend on the processing

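The 12 results were recomputed 83 times. Of these values 48 stayed within the interval of the reported value and 35 moved beyond it. Shares and medians have no direction to change, and desert shares were bound to move with the distance limit. The ratio of overexpression to basal desert sites stayed below 1 under each of its settings. The lower shared part of desert sites kept intervals below 0 in both lists under each of 8 settings that bear on it, as did the lower CTCF share against nearer sites. Desert shares of the basal and overexpression lists were 17.8% and 15.9% at 100 kb, 3.43% and 2.88% at 500 kb, 13.4% and 11.6% with 1 start per gene, 8.51% and 7.13% for wide sites (at or above the pooled median), and 8.23% and 7.21% without sites in coding gene bodies, an alternative chosen after seeing the data. Without sites within 5 Mb of a centromere gap they were 9.59% and 8.08%, and without repeated sites the overexpression share was 8.24%. Shared parts were 38.2% and 47.1% at 100 kb, 51.8% and 61.1% for wide sites, and 29.5% and 37.8% with 50% overlap of both sites; without sites near centromere gaps the basal value was 33.01%. CTCF shares were 15.5% and 14.2% at 100 kb, 4.16% and 3.90% with no mismatch, and 15.4% and 13.9% in 500 bp around the centre; the overexpression value was 10.6% at 500 kb and the basal value 11.97% for wide sites. LncRNA starts within 10 kb gave 14.2% and 14.1%, and the overexpression share within 1 kb was 6.28% for wide sites. WindowMasker medians, also chosen after seeing the data, were 14.7% and 12.4%. Developmental genes flanked 18.1% of site-bearing deserts at 100 kb and 13.6% with transcription factors alone. The cause of these shifts was not tested. The planned repeat measure of 32-letter words was not run as an alternative, since the reference carries no mask and it became the main measure. No paired analysis was possible because each condition had 1 library and no result came from a test; for the same reason no library could be left out. Unknown depth and 1 library per condition limit all comparisons between the lists.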
